A study of Mus musculus with 4 samples.

Results

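Ad IIa is a label that the authors gave to a group of nuclei in a single-nucleus RNA study of fat-associated cells, and here the Ad IIa nuclei of the thymus are set beside those of epigonadal white fat. The members were taken from the authors' deposited table of nuclei by that label alone. There were 821 of them among 1929 labelled nuclei, 231 of 365 in the thymic library and 590 of 1564 in the epigonadal library. The thymic library came from 6 pooled thymi cleaned of the fat around them, while the labels do not say how many animals gave the epigonadal fat. Both libraries came from 4-month male naive WT mice, described for the thymic animals as C57/BL6 on standard chow. The tissue was digested and the floating layer, in which fat-laden cells collect, was taken for nuclei. The labels give no altered allele, transgene or treatment for either group. Each side is 1 library, so no difference below has a replicate check, no test was possible between the groups and every interval covers counting error only.

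Endothelial cells line blood vessels. Within this lineage, arterial, capillary and venous cells are told apart by different genes, and signals of the VEGF, angiopoietin and Notch families direct how vessels sprout and which fate their cells take. Capillaries of fat also move fatty acids from blood to adipocytes, with lipoprotein lipase held on their surface by GPIHBP1 and with the carriers CD36 and FABP4. In the thymus, vessels supply progenitors to the organ in which T cells mature, and Notch ligands there are known for directing T-cell fate. Hox genes are transcription factors laid out in 4 clusters in an order that follows the body axis, and many adult cells keep a Hox pattern that reflects where along that axis they arose.

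The label was first checked against cell type markers. Endothelial markers, 15 genes such as Pecam1, Cdh5, Kdr, Flt1 and Emcn, summed to 15459 CPM (counts scaled to a common total of nuclear-encoded UMIs, summed over the nuclei) in thymic and 11356 CPM in epigonadal Ad IIa. In barcodes without a label the same genes summed to 1539 and 3175 CPM. In nuclei of the authors' label Ad IIc they summed to 13140 CPM in the thymic and 589 CPM in the epigonadal library. In the labels Ad Ia and Ad Ib together they summed to 1876 and 1713 CPM. At least 2 of these UMIs were found in 230 of 231 thymic and 582 of 590 epigonadal nuclei. Among the 10 leading genes of Ad IIa against the remaining labelled nuclei there were 0 endothelial markers in either library. In the thymic library those remaining nuclei include Ad IIc, whose endothelial marker level was close to that of Ad IIa. The epigonadal 10 held the T-cell receptor chain gene Cd247 (132.6 CPM against 11.9 in the remaining labelled nuclei). Cd247 made up 164 of the 173 UMIs of T-cell markers in epigonadal Ad IIa, and 13 of those 18 markers had 0. The nuclei are called by the authors' label and not by a cell type name. The samples are described in the labels as adipocytes, and adipocyte markers were low in the thymic nuclei, as given below.

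Depth was similar in the 2 libraries and mitochondrial RNA was not. Thymic nuclei held 433 to 6296 UMIs (median 1693) and epigonadal nuclei 504 to 5971 (median 1915.5), summing to 401448 and 1237126 nuclear-encoded UMIs. The mitochondrial percent had a median of 13.3 (4.19 to 19.97) in thymic and 4.63 (0.287 to 14.9) in epigonadal nuclei. Xist and Tsix had no UMI in either sum and 4 Y-linked genes together 458 and 410 CPM. The 2 libraries shared 147 barcodes, none of them labelled Ad IIa in both. In the authors' finer clustering the label drew on different clusters. Of the thymic nuclei 211 (91.3%) lay in cluster 3 and 16 in cluster 1, while of the epigonadal nuclei 498 (84.4%) lay in cluster 1, 54 in cluster 3 and 35 in cluster 4. Values within cluster 3 are therefore given beside many of the main ones, and the median log2 ratio of all genes was 0.12 there. The 54 epigonadal nuclei of cluster 3 differ from those of cluster 1. Endothelial markers summed to 8666 CPM in them against 11692 CPM, and adipocyte markers to 20235 against 10391 CPM. The part of this difference in the cluster 3 values was not tested. RNA classes also differed. Ribosomal protein genes made up 23296 CPM in the thymic and 38364 CPM in the epigonadal sum, and the nuclear RNA Malat1 made up 17429 and 10009 CPM, while a second nuclear RNA, Neat1, was at 394 and 393 CPM. Genes with a span under 10 kb had a median log2 ratio of −0.54 and genes of 200 kb and over 0.30. The part of these classes in the differences below was not tested.

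Over all genes the 2 sums were similar in rank. A log2 ratio of CPM, thymus over epigonadal fat, was taken for the 9775 genes with 10 or more UMIs over both sums, after adding 0.5 UMI to each sum. The rank correlation across those genes was 0.867, as a description of 2 libraries. The median log2 ratio was −0.02. A difference of 2-fold or more is called below, and 532 genes (5.44%) were at a log2 ratio of 1 or more and 1588 (16.2%) at −1 or less. With genes at 0 thymic UMIs held at 3 counts, 1400 (14.3%) were at −1 or less.

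**Figure D1:**
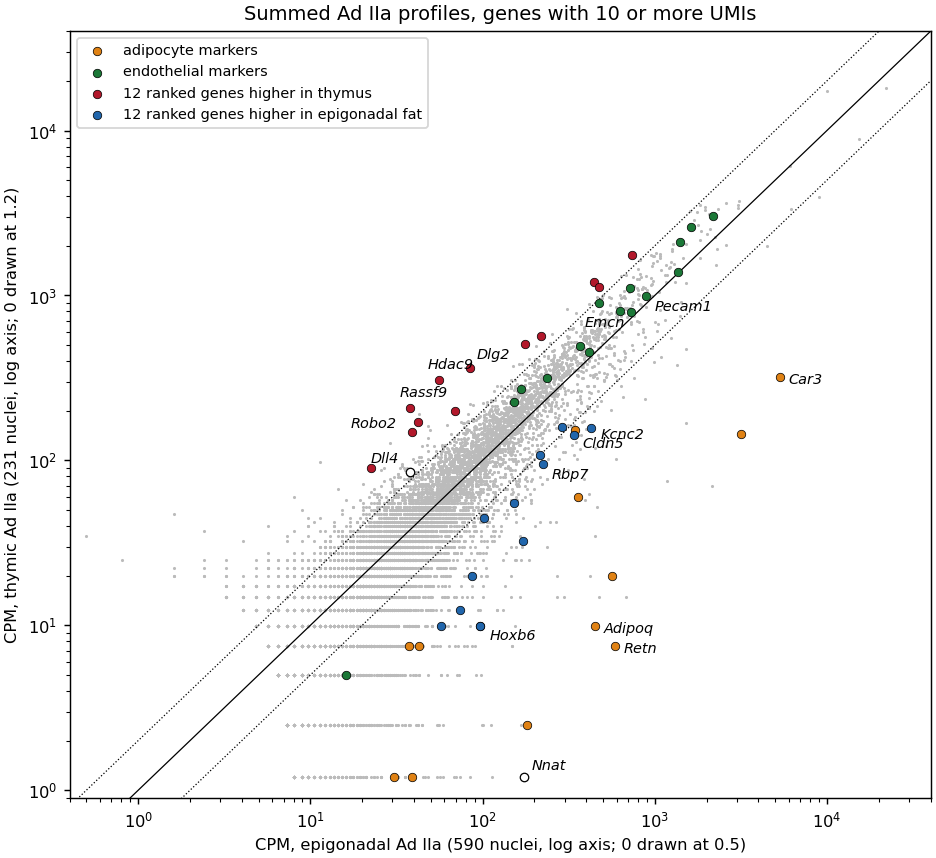
Level of each gene with 10 or more UMIs in the epigonadal (x axis) and thymic (y axis) Ad IIa sums, in CPM on log axes, with the line of equality and dotted lines at 2-fold. Open circles are Dll4 and Nnat. Endothelial markers lie near the line of equality apart from Cldn5 (drawn as a ranked gene) and Vwf, the adipocyte markers all lie at or below the lower dotted line, and the ranked genes on either side lie around or beyond 2-fold.

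The 4 genes chosen to mark the comparison behaved in 3 ways. Pecam1 (ENSMUSG00000020717), an adhesion molecule of endothelial junctions, had 396 thymic UMIs (986 CPM) and 1101 epigonadal UMIs (890 CPM), a log2 ratio of 0.15 (95% interval −0.02 to 0.32). Its level was not distinguishable between the libraries at this depth. Rassf9 (ENSMUSG00000044921), which encodes a RAS-association domain protein, had 84 thymic UMIs (209 CPM) and 47 epigonadal UMIs (38.0 CPM), a log2 ratio of 2.45 (1.93 to 3.01). Dll4 (ENSMUSG00000027314), a Notch ligand of arterial and tip cells, had 34 UMIs (84.7 CPM) and 47 UMIs (38.0 CPM), a log2 ratio of 1.16 (0.48 to 1.82). Hoxb6 (ENSMUSG00000000690) went the other way, with 4 thymic UMIs (9.96 CPM) and 120 epigonadal UMIs (97.0 CPM), a log2 ratio of −3.12 (−5.18 to −1.89).

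The shares of nuclei with a UMI gave the same order for Rassf9 and Hoxb6. Rassf9 was detected in 57 of 231 thymic nuclei (24.7%, Clopper-Pearson 95% interval 19.3 to 30.8) and in 36 of 590 epigonadal nuclei (6.10%, 4.31 to 8.35). In Ad I nuclei, the labels Ad Ia and Ad Ib together, it was found in 1 of 84 thymic (1.19%) and 2 of 258 epigonadal nuclei (0.775%), at median depths of 500.5 and 744.5 UMIs. Thymic Ad IIc nuclei had Rassf9 at 203 CPM (11 UMIs), near the thymic Ad IIa level, and epigonadal Ad IIc nuclei had 0 UMIs. Thinned to 500 UMIs per nucleus, the Ad IIa shares of Rassf9 were 6.55% and 1.69%. Hoxb6 was detected in 4 thymic (1.73%) and 97 epigonadal Ad IIa nuclei (16.4%), and in 1.19% and 2.33% of Ad I nuclei. Ad I nuclei were shallower, so the thymic Ad IIa share cannot be read against theirs. Thymic Ad IIa nuclei had Hoxb6 at 9.96 CPM on 4 UMIs, and unlabelled thymic barcodes at 0.652 CPM. Thinned to 500 UMIs, the Ad IIa shares of Hoxb6 were 0.437% and 4.58%. For Dll4 the shares were 12.1% and 6.95%, against 2.38% and 0.775% in Ad I, but thinned they were 1.75% and 1.86%, so its difference was not detectable at 500 UMIs. Within cluster 3, where 4 epigonadal UMIs remained, the log2 ratio of Dll4 was 0.99 (−0.37 to 3.11) and that of Rassf9 3.27 (1.69 to 6.66).

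Endothelial identity genes were present on both sides and slightly higher in the thymic sum. Of 24 members tested, 0 were at 1 or more (5.44% over all genes), 2 at −1 or less (16.2% over all genes) and 19 above 0. The median was 0.31 against −0.02 for all genes. Against genes of the same span the median was 0.19, and the 3 members with a span under 10 kb had a median of −0.35 and the 21 longer ones 0.36. Emcn, a sialomucin of capillary and venous endothelium, had 359 and 590 UMIs, 894 and 477 CPM, a log2 ratio of 0.91 (0.71 to 1.10). Flt1, a VEGF receptor, had 2601 and 1634 CPM (0.67, 0.56 to 0.78), and Tie1, an angiopoietin co-receptor, was at 0.69 (0.34 to 1.03). Ptprb, the phosphatase that restrains TIE2, differed by less than counting error at 1395 and 1356 CPM (0.04, −0.10 to 0.18). The 2 low members were Cldn5, a tight junction claudin, with 57 and 418 UMIs (142 and 338 CPM; −1.24, −1.68 to −0.85), and Vwf with 2 and 20 UMIs (−1.41, −4.84 to 0.34). Within cluster 3 the list median was 0.74 and Cldn5 stood at −1.25 (−1.87 to −0.62).

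Among 29 members tested of the endothelial transcription factor list, 2 were at 1 or more (5.44% over all genes) and 0 at −1 or less (16.2% over all genes). The median was 0.25, or 0.64 within cluster 3. The 2 were Hdac9, which encodes a deacetylase, and Prdm1, which had few UMIs. Hdac9, a class IIa histone deacetylase that represses MEF2 factors, had 123 thymic UMIs (306 CPM) and 69 epigonadal UMIs (55.8 CPM), a log2 ratio of 2.45 (2.02 to 2.90). One thymic nucleus held 20 of its UMIs, and 32 thymic and 40 epigonadal nuclei had any. Mef2c, a transcription factor that class IIa deacetylases bind, had 805 and 437 CPM (0.88, 0.68 to 1.08). Prdm1, a transcriptional repressor, had 9 and 7 UMIs (1.96, 0.39 to 3.65). Fli1, an ETS factor, had 2466 and 1855 CPM (0.41, 0.30 to 0.52).

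Markers of vessel beds divided. Of 13 arterial and tip cell genes, 3 were at 1 or more (5.44% over all genes) and 2 at −1 or less (15.4%, against 16.2% over all genes). The median was 0.15, or 0.81 within cluster 3. The 3 higher members were Dll4, Efnb2, the ephrin ligand that marks arteries, and Angpt2, an angiopoietin of sprouting vessels. Angpt2 had 11 and 16 UMIs (1.10, −0.17 to 2.28). Efnb2 had 155 and 202 UMIs, 386 and 163 CPM (1.24, 0.93 to 1.55). It was at 2.28 within cluster 3, where 8 epigonadal UMIs remained. In nuclei with 0 adipocyte marker UMIs, of which 10 were epigonadal, Efnb2 was at −0.29. The elastic fibre gene Fbln5 (3 and 33 UMIs; −1.64, −4.19 to −0.16) and the lymphatic growth factor Vegfc (3 and 23 UMIs; −1.12, −3.69 to 0.41, which includes 0) had ratios below 0. Of 20 capillary genes, 0 were at 1 or more and 2 at −1 or less, with a median of 0.06, which was −0.0052 with TMM scaling and −0.042 within cluster 3.

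The list of venous and postcapillary genes lay lowest of the vessel bed lists. Of 12 members tested 0 were at 1 or more (5.44% over all genes) and 6 at −1 or less (16.2% over all genes), with a median of −0.96. With members at 0 thymic UMIs held at 3 counts, 5 were at −1 or less (14.3% over all genes) and the median was −0.59. The median was −0.56 over the 6 members left within cluster 3 and −0.26 with 5 UMIs added. Lrg1, a secreted glycoprotein of venules, had 0 thymic and 104 epigonadal UMIs (84.1 CPM), 11.2-fold lower with 0 held at 3 counts. Lrg1 was at 109 CPM in unlabelled epigonadal barcodes, above its Ad IIa level. Vcam1, the leukocyte adhesion molecule, had 0 and 14 UMIs, 1.51-fold lower with 0 held at 3 counts, and 5 nuclei held those 14. Plvap, which forms the diaphragms of fenestrated endothelium, had 1 and 40 UMIs (−3.13, −9.04 to −1.14). Il6st, the shared receptor of the IL-6 family, had 23 and 235 UMIs, 57.3 and 190 CPM (−1.70, −2.42 to −1.11). The venous transcription factor Nr2f2 was at −0.58 (−1.30 to 0.05). Vwf, Plvap and Vcam1 were at 32.3 CPM or less in either sum, so these ratios rest on few UMIs.

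**Figure D2:**
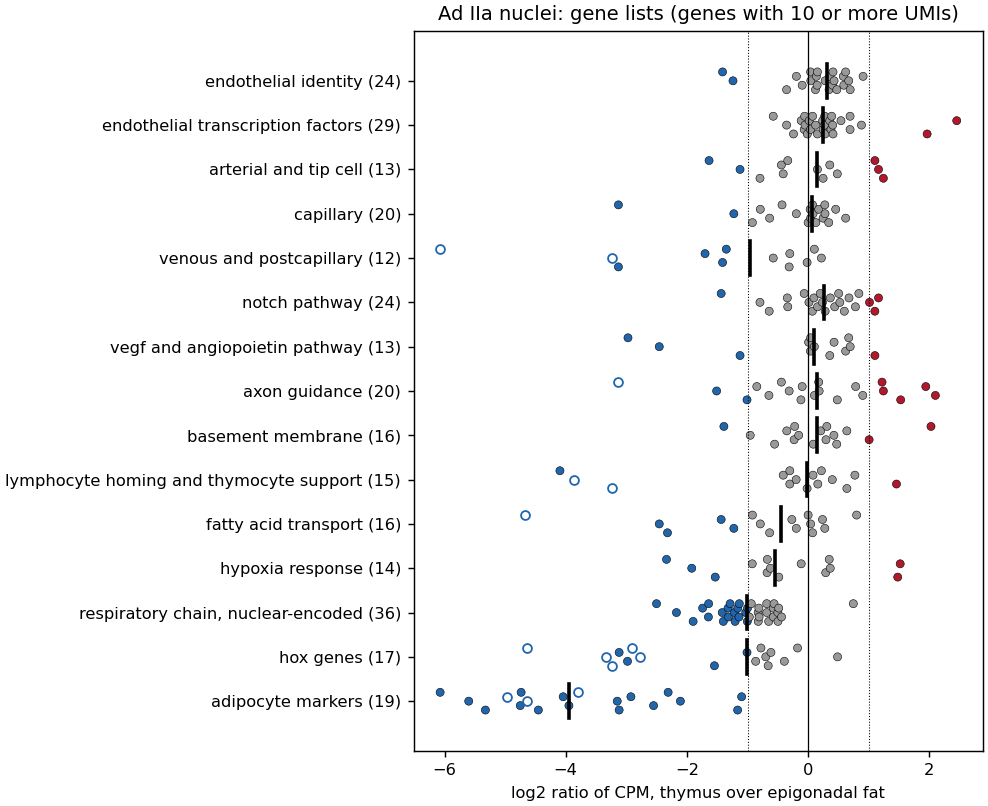
Log2 ratio of CPM, thymus over epigonadal fat, for each gene with 10 or more UMIs in 15 gene lists (number of genes in brackets). Points are red at 1 or more, blue at −1 or less and grey between, open points have 0 UMIs in the thymic sum, and black bars are list medians. Endothelial lists centre near 0 apart from the venous list, whereas adipocyte markers lie at −1.10 or lower throughout.

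Of 24 Notch pathway genes tested 3 were at 1 or more, 1 was at −1 or less and 18 were above 0, with a median of 0.26. Over all genes 5.44% were at 1 or more and 16.2% at −1 or less, so the count rests on few members, and for Dll4 no difference was detectable when thinned. Besides the ligand Dll4, the target gene Hes1 had 50 and 72 UMIs (125 and 58.2 CPM; 1.10, 0.55 to 1.64), and the co-activator Maml1 had 28 and 43 UMIs (1.01, 0.26 to 1.72). A second co-activator, Maml2, had 1293 and 753 CPM (0.78, 0.62 to 0.94). The receptor Notch1 did not differ beyond counting error, at 262 and 216 CPM (0.28, −0.06 to 0.61). The ligand Jag1 was lower, with 14 and 77 UMIs (−0.79, −1.77 to −0.0028), and the glycosyltransferase Rfng had 1 and 12 UMIs (−1.44, −7.38 to 0.80). Within cluster 3 the list median was 0.99 and Hes1 had 48 thymic and 0 epigonadal UMIs, there among 54 epigonadal nuclei. In cluster 1 Hes1 had 0 UMIs in 16 thymic nuclei (0 to 107 CPM) and 67 UMIs (64.0 CPM) in 498 epigonadal nuclei. In nuclei with 0 adipocyte marker UMIs, 87 thymic and 10 epigonadal, Hes1 was at −1.71, a value without an interval.

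Of 13 VEGF and angiopoietin genes, 1 was at 1 or more (5.44% over all genes) and 3 were at −1 or less (23.1%, against 16.2% over all genes). The median was 0.10, or 0.48 within cluster 3. The receptors Kdr (1104 and 719 CPM; 0.62, 0.45 to 0.78) and Flt1 were higher in the thymic sum. The VEGF receptor Flt4 (0.01, −0.97 to 0.84) and Ptprb did not differ beyond counting error. The low members Angptl4, Vegfb and Vegfc encode secreted factors, as does Angpt2, the member at 1 or more. Angptl4, an inhibitor of lipoprotein lipase, had 12 and 211 UMIs, 29.9 and 171 CPM (−2.46, −3.49 to −1.68), and Vegfb had 2 and 60 UMIs (−2.97, −6.36 to −1.37). Vegfb stood at 74.1 CPM in unlabelled epigonadal barcodes, above the 48.5 CPM of epigonadal Ad IIa.

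The axon guidance list also holds Dlg2 and Stxbp6, which are not guidance signals or receptors, and these were among its highest members. Of 20 members tested 5 were at 1 or more (5.44% over all genes) and 3 at −1 or less (16.2% over all genes), or 2 with the floor of 3 counts. The median was 0.14, or 0.91 within cluster 3 and −0.046 against genes of the same span. Dlg2, a scaffold of membrane complexes, had 145 and 104 UMIs, 361 and 84.1 CPM (2.10, 1.73 to 2.48). The SLIT receptor Robo2 had 60 and 48 UMIs, 149 and 38.8 CPM (1.94, 1.37 to 2.52). Both were concentrated, since Dlg2 came from 52 thymic and 58 epigonadal nuclei and Robo2 from 23 and 18. The syntaxin-binding Stxbp6 had 508 and 176 CPM (1.53, 1.25 to 1.81) from 91 and 127 nuclei. The guidance ligand Efnb2, described above with the arterial genes, was also at 1 or more. Within cluster 3 the ephrin receptor Epha4 was at 1.07 (0.12 to 2.33), with 65 thymic and 9 epigonadal UMIs. On the epigonadal side stood the semaphorin gene Sema3f (4 and 39 UMIs; −1.51, −3.61 to −0.19). Sema3c (0 and 13 UMIs, 1.41-fold lower with 0 held at 3 counts) and Ntn1 with 2 and 15 UMIs (−1.01, −4.46 to 0.82) had intervals that include 0. The SLIT ligand Slit3 had 282 and 442 CPM (−0.65, −0.96 to −0.36). Dlg2 is also present in the Ad I nuclei, at 5.95% of thymic and 17.8% of epigonadal nuclei, against 22.5% and 9.83% of Ad IIa nuclei.

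Genes of fatty acid transport, the textbook work of fat capillaries, were expressed on both sides. Cd36 had 2459 and 7577 UMIs, which is 6125 CPM in either sum, a log2 ratio of 0.00 (−0.07 to 0.07). Gpihbp1, the anchor of lipoprotein lipase, had 453 and 441 CPM (0.04, −0.21 to 0.28), and Pparg, the nuclear receptor of fat storage, had 2371 and 2012 CPM (0.24, 0.13 to 0.35), or −0.0022 against genes of the same span. The list as a whole, with 16 members tested, had 0 at 1 or more (5.44% over all genes) and 5 at −1 or less (16.2% over all genes). Its median was −0.45. Fabp4 had 8860 and 15308 CPM (−0.79, −0.84 to −0.74), the lipase Lpl 917 and 1425 CPM (−0.63, −0.80 to −0.47), and the retinol-binding Rbp7 94.7 and 224 CPM (−1.23, −1.77 to −0.75). Epigonadal Fabp4 was at 99.5% of its unlabelled level and epigonadal Lpl at 68.7%, whereas Cd36 and Rbp7 were at 280% and 269%. Slc27a1, a fatty acid transport protein, had 0 and 39 UMIs, at least 4.22-fold lower, and its epigonadal level was 29.9% of the unlabelled one.

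Adipocyte markers were far lower in the thymic sum. All 19 members tested were at −1 or less, from −6.07 for Retn to −1.10 for Acaca, with a median of −3.95, or −3.12 with members at 0 thymic UMIs held at 3 counts, and −4.83 within cluster 3. Adipoq, which encodes adiponectin, had 4 thymic and 556 epigonadal UMIs, 9.96 and 449 CPM (−5.33, −7.38 to −4.13). Car3, an abundant carbonic anhydrase of adipocytes, had 129 and 6577 UMIs, 321 and 5316 CPM (−4.04, −4.31 to −3.80). Lipe, the hormone-sensitive lipase, had 152 and 343 CPM (−1.16, −1.59 to −0.78).

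That RNA was spread over nearly all epigonadal nuclei. Over the 13 adipocyte type markers the median was 1 UMI per thymic nucleus (highest 10) and 18 per epigonadal nucleus (highest 123), and 87 of 231 thymic nuclei (37.7%) against 10 of 590 epigonadal nuclei (1.69%) had 0. The sums were 742 and 11234 CPM. Unlabelled barcodes of the same libraries held 2640 and 18656 CPM, so Ad IIa was below them on both sides. In the epigonadal library the 13 markers stood at 30.3% to 93.5% of their unlabelled level (median 59.7%) and at 16.4% to 35.2% of their level in Ad IIc (median 20.9%), the label with the most adipocyte RNA there. By finer cluster the epigonadal sum was 10391 CPM in cluster 1 and 20235 CPM in cluster 3, the thymic sum 261 and 760 CPM. Whether this RNA lay inside the nuclei or was taken up from outside was not tested, and its part in other genes lower in the thymic sum cannot be told apart with 1 library a side.

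**Figure D3:**
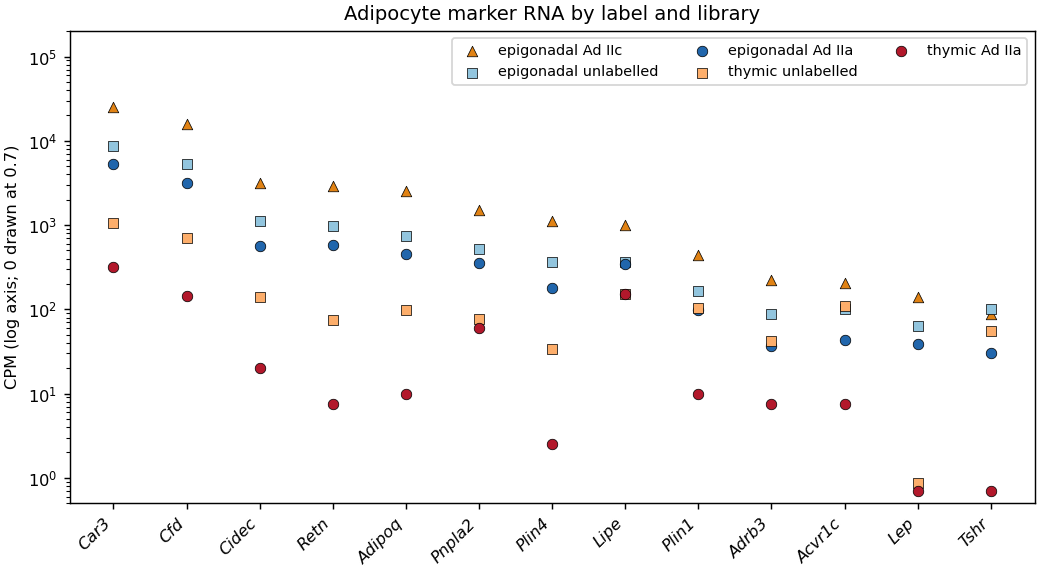
Level of the 13 adipocyte markers in CPM on a log axis, by label and library, with markers ordered by their epigonadal Ad IIc level and values of 0 drawn at 0.7. Epigonadal Ad IIa lies below the epigonadal unlabelled level for each marker, from 30.3% to 93.5% of it, and thymic Ad IIa lies lower again.

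Hoxb6, Hoxb8 and Hoxc8 were lower in the thymic sum, and the Hoxd genes added together were lower by less. Of 39 Hox genes 17 had 10 or more UMIs, 0 of them at 1 or more and 9 at −1 or less (16.2% over all genes), with a median of −1.01. With the members at 0 thymic UMIs held at 3 counts, 5 were at −1 or less and the median was −0.70. Of the 17, 13 had a span under 10 kb with a median of −1.55, a length at which 31.9% of all genes were at −1 or less, and the longer 4 had a median of −0.74. The median depended on depth and on the count added to low genes, at −1.57 in nuclei of 1000 UMIs or more, −0.25 over the 10 members left when thinned to 500 UMIs and −0.23 with 5 UMIs added. Hox genes of paralog numbers 1 to 5 summed to 78 thymic and 328 epigonadal UMIs, 194 and 265 CPM (−0.44, −0.82 to −0.09), and all 7 tested lay between −0.87 and 0.49. Paralogs 6 to 13 summed to 23 and 354 UMIs, 57.3 and 286 CPM (−2.29, −2.997 to −1.71), and 9 of the 10 tested were at −1 or less, or 5 with the floor of 3 counts, which left Hoxb7, Hoxb9, Hoxc6 and Hoxc9 under 2-fold. In the Hoxd cluster Hoxd8, with 10 and 36 UMIs, was at −0.17, and Hoxd3 (−0.87), Hoxd4 (−0.78) and Hoxd9 (−1.01, −4.46 to 0.82) lay close together. Hoxb4 had 22 and 49 UMIs, 54.8 and 39.6 CPM (0.49, −0.33 to 1.22), and −0.42 within cluster 3 (−1.68 to 1.15), while Hoxb6 in the same Hox cluster stood at −3.12, and −3.07 within cluster 3. Hoxb7 had 0 and 14 UMIs, Hoxb8 1 and 36, and Hoxb9 0 and 11.

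The Hoxc cluster was nearly absent from the thymic sum, with 1 UMI (2.49 CPM) against 77 (62.2 CPM) over its 9 genes. Hoxc8 had 0 and 38 UMIs, 4.11-fold lower in the thymic sum with 0 held at 3 counts, and Hoxc6 0 and 15. The limit of the log2 interval of Hoxc8 nearest 0 was −1.67. Hoxa genes summed to 67.3 and 108 CPM (−0.67, −1.34 to −0.08) and Hoxd genes to 69.7 and 118 CPM (−0.74, −1.40 to −0.17). Unlabelled barcodes had the same direction, with paralogs 6 to 13 at 11.1 CPM in the thymic and 236 CPM in the epigonadal library, and Ad I nuclei had 1 and 56 UMIs of them (19.1 and 212 CPM). Hoxc8 stood at 72.3 CPM in unlabelled epigonadal barcodes, above its 30.7 CPM in Ad IIa, whereas Hoxb6 stood at 31.0 against 97.0 CPM. Antisense and overlapping transcripts are common in these clusters, no source read here says whether the counting used strand, and reads of neighbours may be shared. Hoxb3os had 18 and 36 UMIs and Hoxb5os 0 and 3. The grouping by paralog number and the naming of Hoxb8, Hoxd3, Hoxd9 and the antisense genes were chosen after their values were seen, as was that of Gpihbp1 above.

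**Figure D4:**
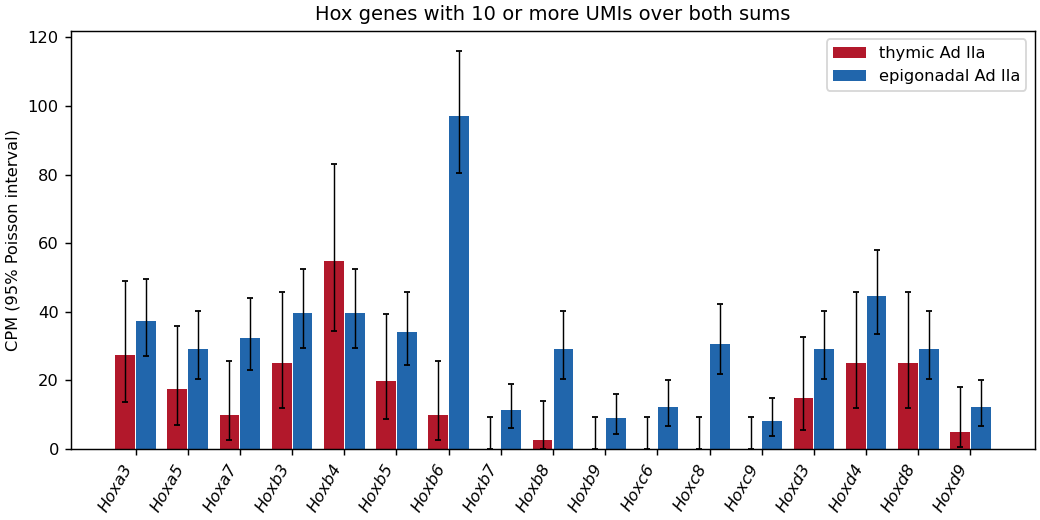
Level of the 17 Hox genes with 10 or more UMIs in CPM, ordered by cluster and paralog number, with red bars for thymic and blue bars for epigonadal Ad IIa and lines for 95% Poisson intervals. Hoxb6 is at 9.96 against 97.0 CPM, and Hoxb7, Hoxb9, Hoxc6, Hoxc8 and Hoxc9 have no thymic UMI.

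Genes ranked without regard to their unlabelled level led to other kinds of RNA. The ranking took genes with 50 or more UMIs and 50 CPM on the higher side, by the interval limit nearest 0. On the epigonadal side the first 12 were Retn, Ifi27l2a, Gsn, Nnat, Adipoq, Cfd, Lgals1, Cidec, Car3, Plin4, Rbp4 and Mt1. Retn is the resistin gene, Gsn encodes the actin-severing gelsolin and Cfd encodes complement factor D. The interferon-inducible Ifi27l2a had 28 and 2658 UMIs, 69.7 and 2149 CPM (−4.92, −5.54 to −4.41). Nnat, the imprinted neuronatin gene, had 0 thymic and 216 epigonadal UMIs (175 CPM), 23.4-fold lower with 0 held at 3 counts. The limit of its log2 interval nearest 0 was −4.24. Each of these 5 stood below its own unlabelled epigonadal level, Nnat at 59.3% of it, Ifi27l2a at 57.6%, Retn at 59.7%, Cfd at 59.8% and Gsn at 40.2%. On the thymic side Satb1, a chromatin organiser of thymocytes, led with 39 and 14 UMIs, 97.1 and 11.3 CPM (3.07, 2.19 to 4.10), and it stood at 4113 CPM in unlabelled thymic barcodes. The hemoglobin gene Hba-a2 (77 and 53 UMIs, 2.16) also ranked there, with 52 of its thymic UMIs in 1 nucleus.

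A stricter ranking kept genes at 2 times or more their unlabelled level in the library where they were higher. Of 789 genes eligible on the thymic side the 12 first were Hdac9, Rassf9, Dlg2, Hmcn1, Robo2, Zbtb16, Stxbp6, Lrrc3b, Hecw2, Rapgef2, P4ha1 and Prkd1, with log2 ratios from 2.45 to 1.24. Hmcn1, an extracellular matrix hemicentin, had 69 and 52 UMIs, 172 and 42.0 CPM (2.03, 1.49 to 2.58). Zbtb16, the zinc finger factor PLZF, had 482 and 552 UMIs, 1201 and 446 CPM (1.43, 1.25 to 1.61), from 164 and 275 nuclei. Rapgef2, an exchange factor for RAP1, had 1754 and 741 CPM (1.24, 1.10 to 1.39) and had a UMI in 198 thymic and 391 epigonadal nuclei. P4ha1, a collagen prolyl hydroxylase, had 199 and 69.5 CPM (1.52, 1.06 to 1.98).

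On the epigonadal side 169 genes were eligible, and the 12 first were Hoxb6, Sorbs2, Shroom3, Nuak1, Eln, Kcnc2, Cldn5, Npr3, Rbp7, Csf2rb, Plxna4 and Osbpl6, with log2 ratios from −3.12 to −0.85. Sorbs2, a cytoskeletal adaptor, had 13 and 213 UMIs, 32.4 and 172 CPM (−2.36, −3.34 to −1.61). The potassium channel gene Kcnc2 had 63 and 530 UMIs, 157 and 428 CPM (−1.44, −1.85 to −1.07), and it was among the 10 leading genes of Ad IIa in both libraries. Npr3, the natriuretic peptide clearance receptor, had 54.8 and 152 CPM (−1.44, −2.18 to −0.83). The elastin gene Eln had 19.9 and 86.5 CPM (−2.04, −3.37 to −1.09).

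Finer cluster 3 holds 211 of the 231 thymic nuclei on which these genes were ranked, so its values describe them and are no separate support. There the 12 thymic-side genes had a median log2 ratio of 2.23, with 0 to 69 epigonadal UMIs each and fewer than 10 for 8 of them. The intervals of Stxbp6 (0.70 to 2.02), Hmcn1 (0.69 to 3.65) and P4ha1 (0.92 to 4.27) reached below 2-fold. The 12 epigonadal-side genes had a median of −1.35. Of these Csf2rb (−0.94), Kcnc2 (−0.85) and Plxna4 (−0.0017) were below 2-fold, the whole interval lay past 2-fold for 3, and the intervals of Plxna4, Nuak1 and Osbpl6 included 0. In unlabelled barcodes the sign was not always shared. Robo2 (1.18), Rassf9 (0.59) and P4ha1 (0.59) were also higher in the thymic library there. Stxbp6 (−0.94), Prkd1 (−0.60), Hecw2 (−0.59), Zbtb16 (−0.18) and Rapgef2 (−0.12) were lower. Hoxb6 (−5.35) and Cldn5 (−2.18) were lower in the thymic library as in Ad IIa. Among Ad I nuclei Rapgef2 (1.48, 0.75 to 2.16) and P4ha1 (1.52, 0.21 to 2.68) were also higher in thymus. The Ad I intervals of the other thymic-side genes included 0. Zbtb16 was at 1302 CPM in thymic and 1099 CPM in epigonadal Ad I. Among the nuclei with 0 adipocyte marker UMIs, which leaves 87 thymic and 10 epigonadal nuclei, 15 of 54 named genes with 10 or more UMIs changed sign, among them Pecam1, Efnb2, Hes1, Hecw2, P4ha1, Fabp4, Rbp7 and Slit3. So did the medians of the T-cell markers and of 8 gene lists, including the fatty acid transport, arterial and tip cell, axon guidance, basement membrane, transcription factor and respiratory chain lists, and the closing section gives these values. Those values have no interval, and some coincide, such as 0.015 for Cox8a and for the median of all genes. With 10 epigonadal nuclei a change of sign there may rest on few UMIs.

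**Figure D5:**
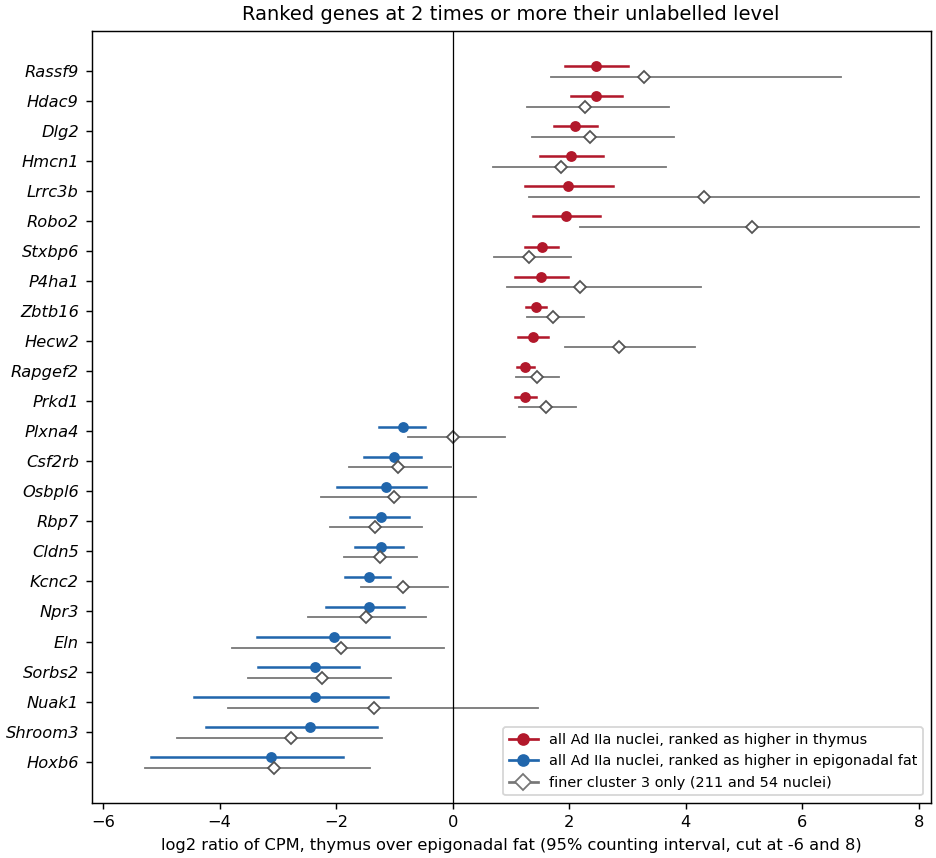
Log2 ratio of CPM, thymus over epigonadal fat, with 95% counting intervals for the 24 genes of the stricter ranking, over all Ad IIa nuclei (red and blue circles) and within the authors' finer cluster 3 (open diamonds). The cluster 3 values include most of the ranked thymic nuclei, and Plxna4 moves from −0.85 to −0.0017.

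Promoters of 4 of these genes are shown, 2 that were higher in the thymic sum (Dll4 and Hmcn1) and 2 that were lower (Rbp7 and Cldn5), so that both directions can be read side by side. They were chosen, with their values known, among genes with an entry in the promoter table used, and Rassf9, Hoxb6, Hes1 and Pecam1 had no entry. Each is the 250 bases before the start given for the gene in that promoter table, build GRCm38.p6, 5′ to 3′ on the gene's strand: chr2:119325534-119325783 (plus strand) for Dll4, chr1:150993436-150993685 (minus) for Hmcn1, chr4:149454969-149455218 (minus) for Rbp7 and chr16:18776597-18776846 (plus) for Cldn5. The Rbp7 window lies inside the gene's whole RefSeq span (chr4:149449687-149466462). Most of the Hmcn1 window also lies inside the span of its gene, which ends at 150993652. Which start these nuclei use was not tested. Capitals mark the core of the Notch effector RBPJ (TGGGAA, or TTCCCA on the other strand) and an ETS factor core (CAGGAA or TTCCTG), which share the letters GGAA.
Dll4: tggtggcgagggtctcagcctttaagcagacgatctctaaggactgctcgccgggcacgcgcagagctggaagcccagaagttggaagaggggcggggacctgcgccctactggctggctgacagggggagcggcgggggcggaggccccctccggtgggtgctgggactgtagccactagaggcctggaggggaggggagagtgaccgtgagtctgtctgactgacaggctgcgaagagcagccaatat
Hmcn1: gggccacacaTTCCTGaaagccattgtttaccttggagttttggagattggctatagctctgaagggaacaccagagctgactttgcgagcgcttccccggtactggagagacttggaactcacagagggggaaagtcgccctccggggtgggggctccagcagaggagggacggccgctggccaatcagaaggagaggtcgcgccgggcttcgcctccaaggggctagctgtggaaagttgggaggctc
Rbp7: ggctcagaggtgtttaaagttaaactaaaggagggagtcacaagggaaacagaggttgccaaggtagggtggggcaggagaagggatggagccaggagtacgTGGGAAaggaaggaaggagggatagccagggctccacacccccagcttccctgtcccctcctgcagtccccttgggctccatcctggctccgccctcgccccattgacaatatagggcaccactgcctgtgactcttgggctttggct
Cldn5: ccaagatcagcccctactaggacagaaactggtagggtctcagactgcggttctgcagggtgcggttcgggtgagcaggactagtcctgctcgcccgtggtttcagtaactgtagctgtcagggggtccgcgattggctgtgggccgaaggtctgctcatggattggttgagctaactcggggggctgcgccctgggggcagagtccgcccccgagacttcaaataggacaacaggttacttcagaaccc
The Rbp7 window holds 1 RBPJ core, the Hmcn1 window 1 ETS core and the Dll4 and Cldn5 windows neither. Of 32817 promoter windows of this length, 21.6% hold the RBPJ core and 25.7% the ETS core, so such matches are common. A match is a stretch of letters and not a measured site.

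Further lists were read in the same way, beside shares of 5.44% at 1 or more and 16.2% at −1 or less over all genes. Of 15 genes of lymphocyte homing and thymocyte support, 1 was at 1 or more and 3 were at −1 or less (2 with the floor of 3 counts), with a median of −0.02, or 0.61 over the 10 members left within cluster 3. Kitl, the stem cell factor gene, had 603 and 1193 UMIs, 1502 and 964 CPM (0.64, 0.50 to 0.78). The death receptor Tnfrsf21 had 122 and 44.5 CPM (1.46, 0.87 to 2.04), and the cytokine Il15 had 120 and 70.3 CPM (0.77, 0.23 to 1.29). The chemokine Cxcl12 had 269 and 359 CPM (−0.41, −0.73 to −0.11), but 0.063 within cluster 3. Igf1, a growth factor of stromal and fat cells, had 3 and 184 UMIs (−4.10, −6.61 to −2.75), and its epigonadal level was 47.3% of the unlabelled one. Of 16 basement membrane genes, 2 were at 1 or more and 1 at −1 or less, with a median of 0.15. Apart from Hmcn1, the collagen chain Col4a1 had 790 and 644 CPM (0.29, 0.10 to 0.48).

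Respiratory chain genes lay lower in the thymic sum. Of 36 nuclear-encoded respiratory chain genes 0 were at 1 or more and 19 at −1 or less (16.2% over all genes), with a median of −1.002, or −1.57 within cluster 3. In nuclei with 0 adipocyte marker UMIs, 87 thymic and 10 epigonadal, the median was 0.015 over the 15 members left. All genes had the same median there. Atp5g3, a subunit of the ATP synthase ring, had 17 and 305 UMIs, 42.4 and 247 CPM (−2.50, −3.34 to −1.84), and Cox8a had 87.2 and 398 CPM (−2.17, −2.73 to −1.70). Ndufs4 of complex I was the member above 0, at 174 and 104 CPM (0.75, 0.30 to 1.17). Mitochondrially encoded RNA went the opposite way, as given by the mitochondrial percent. Of the 36 genes, 21 had a span under 10 kb with a median of −1.14, where all genes had a median of −0.54 and 31.9% were at −1 or less, and 15 a longer span with a median of −0.68. Of 14 hypoxia response genes 2 were at 1 or more and 3 at −1 or less, with a median of −0.55. They divided between P4ha1 and the mitophagy receptor Bnip3, which had 10 and 163 UMIs (−2.34, −3.49 to −1.49).

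Antigen presentation genes, 13 tested, had 0 at 1 or more and 2 at −1 or less, with a median of −0.34. The class I genes H2-K1 (468 and 748 CPM; −0.67, −0.91 to −0.45) and B2m (628 and 859 CPM; −0.45, −0.66 to −0.25) were lower in the thymic sum. Against genes of the same span, B2m was at 0.087. Of 11 clock genes 1, Per1, was at 1 or more with 26 and 28 UMIs (1.52, 0.69 to 2.34), with a median of 0.41. Of 17 immediate early and stress genes 2 were at 1 or more and 2 at −1 or less, with a median of 0.05, which was −0.014 with TMM scaling. The heat shock gene Hspa1b had 20 and 11 UMIs (2.46, 1.36 to 3.69), and it has a near-identical neighbour, Hspa1a, with which reads may be shared. Of 9 non-Hox patterning genes 0 were past 2-fold in either direction, with a median of −0.06.

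RNA of other cell types also differed between the sums. T-cell markers summed to 416 CPM in thymic and 140 CPM in epigonadal Ad IIa, against 7661 and 523 CPM in unlabelled barcodes. Cd247 made up 157 and 133 of those CPM and did not differ beyond counting error (0.25, −0.20 to 0.67), while Themis had 19 and 2 UMIs (4.59, 2.82 to 8.02), at 1.90% of its unlabelled thymic level. Fibroblast markers summed to 17.4 and 257 CPM with 7 of 10 at 0 in the thymic sum, and mural markers to 69.7 and 220 CPM with 5 of 11 at 0. Macrophage markers summed to 247 and 250 CPM. Of these Mertk, a receptor for clearing dead cells, made up 237 and 151 CPM, at 736% and 125% of its unlabelled level, and 7 of 11 members were at 0 in the thymic sum. Erythroid markers summed to 521 and 133 CPM, and without the thymic nucleus that held 128 of 209 UMIs the thymic sum was 202 CPM. Lymphatic endothelial markers summed to 37.4 and 53.3 CPM with 5 of 6 counted members at 0 in the thymic sum, where all 15 UMIs were of the VEGF receptor gene Flt4. Thymic epithelial and mesothelial markers had no UMI in either sum. The part of these cell types in the differences above was not tested.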

How the data were processed

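Nuclei of 1 thymic and 1 epigonadal library were profiled with the 10x droplet assay. The matrices deposited by the authors give unnormalized UMI counts for every gene in every barcode, and per the file headers cellranger 7.2.0 wrote them. The submitters' processing notes name Cell Ranger ARC 2.0.2, Seurat 5.1.0 and the build mm10. Whether introns and strand were used in counting is not given in those sources. A second table by the authors gives each nucleus a label, a finer cluster, a doublet class and a mitochondrial percent. All labelled nuclei were classed as singlets, and no doublet caller was run here.

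Raw counts of the Ad IIa nuclei were summed per library and divided by the sum over nuclear-encoded genes (CPM). Before log2 ratios were taken, 0.5 UMI was added to either sum. Since the thymic sum is the smaller, this raises ratios of low genes. Genes needed 10 UMIs over both sums. Intervals are exact binomial for ratios, exact Poisson for levels and Clopper-Pearson for shares, at 95%. A count of 0 was held at 3 counts per summed library as a floor. That floor leaves out the counting error of the other sum, so its fold can exceed the limit of the 95% interval. There was no test and no p-value. Scripts used Python 3.11.15, scipy 1.17.1 and, for the TMM factors, edgeR 4.0.16, and were tested on simulated data.

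The members and gene lists were chosen with earlier results of these data known. Genes named are the 4 given markers, 12 ranked genes per direction with and without the condition of 2 times the unlabelled level (mitochondrial, ribosomal protein and predicted genes left out), and per list up to 4 highest, 4 lowest and 4 most abundant members and those at 0 UMIs on 1 side. Promoters came from RefSeq. Alternatives were 3 scalings, equal weight per nucleus, subsets of nuclei, thinning to 500 UMIs, subtraction of 10% of the unlabelled profile, a pseudocount of 5 and minimums of 0 or 50 UMIs. Finer cluster 3, centring by gene span and removal of 1 thymic nucleus were added after seeing the data. The 6-month libraries were not used here.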

Additional observations from a re-analysis of the deposited data

How the results depend on the processing

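With 1 library a side, 15 alternatives were run, and nuclei under 5% mitochondrial UMIs were not run because 2 thymic nuclei were left. No paired analysis was possible because each group is 1 library. Under the 3 other scalings the median of all genes was between −0.09 and −0.06. With TMM factors, and with ribosomal protein genes and Malat1 left out of the total, the capillary median became −0.0052 and −0.0041, the immediate early median −0.014 and −0.013, and Cd36, Flt4, Gpihbp1, Neat1 and Ptprb crossed 0 within counting error, as Cd36, Flt4 and Neat1 did with median-of-ratios factors. Thinning to 500 UMIs gave 877 genes at −1 or less and a VEGF and angiopoietin median of 0.46 and a Hox median of −0.25, against −1.57 in nuclei of 1000 UMIs or more. A pseudocount of 5 UMIs, which acts more on the smaller thymic sum and moved the median of all genes to 0.29, gave 860 genes at 1 or more and 365 at −1 or less, a fatty acid transport median of −0.19, a Hox median of −0.23, a venous median of −0.26 and an adipocyte marker median of −2.33. No minimum gave 2026 and 2538 genes, and a minimum of 50 UMIs 143 and 547, since fewer or more genes are then read. Finer cluster 3 alone gave 994 and 1028 genes, and medians of 0.74 for endothelial identity, 0.81 for arterial and tip cell, 0.99 for Notch, 0.48 for VEGF and angiopoietin, 0.91 for axon guidance, 0.64 for endothelial transcription factors and −4.83 for adipocyte markers, with Cxcl12 at 0.063 and Hoxb4 at −0.42. Nuclei with 0 adipocyte marker UMIs, 87 thymic and 10 epigonadal, gave 733 genes at −1 or less and medians of −0.45 for arterial and tip cell, 0.40 for capillary, 0.67 for VEGF and angiopoietin, −0.29 for axon guidance, −0.47 for basement membrane, 0.15 for lymphocyte homing, 0.80 for patterning outside Hox, 0.17 for fatty acid transport, −2.18 for the 1 adipocyte marker left, −0.29 for endothelial transcription factors, 0.015 for the respiratory chain and −0.41 for T-cell markers. There the log2 ratios that changed sign were Cd247 −1.30, Pecam1 −0.997, Col4a1 −1.02, Cox8a 0.015, Efnb2 −0.29, Fabp4 0.17, Hecw2 −0.18, Hes1 −1.71, Il15 −1.27, Malat1 −0.35, Mertk −0.079, Ndufs4 −1.63, P4ha1 −0.031, Rbp7 0.15 and Slit3 2.16. These values have no interval and rest on 10 epigonadal nuclei. The T-cell median was −0.23 after subtraction of 10% of the unlabelled profile. Centred on genes of the same span, B2m was at 0.087 and Pparg at −0.0022, with Pecam1 at −0.090 and the endothelial identity median at 0.19. Over all alternatives the medians of these lists lay on both sides of 0: patterning (−0.34 to 0.80), lymphocyte homing (−0.11 to 0.61), immediate early (−0.057 to 0.59), basement membrane (−0.47 to 0.28), axon guidance (−0.29 to 0.91), arterial and tip cell (−0.45 to 0.81), capillary (−0.042 to 0.40), endothelial transcription factors (−0.29 to 0.64), fatty acid transport (−0.51 to 0.17), hypoxia (−0.62 to 0.039), antigen presentation (−0.41 to 0.012) and respiratory chain (−1.57 to 0.015). Hoxc9, Hoxd8, Hoxd9, Ntn1 and Rfng crossed 0 with 5 UMIs added. The cause of these changes was not tested. With 401448 thymic UMIs, 1 UMI is 2.49 CPM, and the 4 thymic UMIs of Hoxb6 leave its log2 ratio an interval of −5.18 to −1.89.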
